A study of Mus musculus with 2 samples.

Results

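Branched-chain amino acid breakdown is described here through 10 genes in mouse primary hepatocytes: 3 genes of the branched-chain ketoacid dehydrogenase complex (Bckdha, Bckdhb, Dbt), its kinase (Bckdk), 3 genes of the leucine branch (Ivd, Mccc1, Mccc2), 1 of the valine branch (Hibadh) and 2 of the propionyl-CoA route (Pcca, Mut). They were picked by gene symbol from the 35129 symbols of the deposited tables, and all 10 were found. No measured value entered this rule, but earlier results of these data were known when the genes were chosen. The hepatocytes came from C57BL/6 mice and received 1 of 2 adenoviruses. Ad-KLF14 expresses KLF14, a zinc finger factor of the KLF family, and Ad-GFP is the control, which the series' design text calls the empty vector. The labels used here do not give the promoter that drives KLF14, the dose of virus, the time after infection, or the age and number of mice. Each group has 1 table of FPKM values (reads scaled to gene length and library size), taken as 1 library. Without replicates the conditions could not be tested against each other, and each value below describes these 2 libraries alone. The question of the comparison is how gene expression in hepatocytes differs under forced KLF14.

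Leucine, isoleucine and valine share the first steps of their breakdown. Aminotransferases remove the amino group, mostly outside the liver, and the mitochondrial branched-chain ketoacid dehydrogenase complex then oxidises the ketoacids in the step that commits them to breakdown. A kinase, BCKDK, switches the complex off by phosphorylating its E1 alpha subunit, and the phosphatase PPM1K switches it on again. The liver has little aminotransferase and a high activity of the complex, so it mainly handles ketoacids made in other tissues. Past the complex the routes part: leucine yields acetoacetate and acetyl-CoA, whereas valine and part of isoleucine yield propionyl-CoA, which enters the citric acid cycle as succinyl-CoA.

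Totals of 11151711 reads for the Ad-KLF14 library and 11311344 for the Ad-GFP library were worked out from the FPKM steps. The 95% intervals given below are exact Clopper-Pearson intervals of a gene's reads in both libraries. They cover counting error only, and they use the smallest number of reads that accounts for the values, so they may be too wide. Klf14 stood at 13164 FPKM with Ad-KLF14 and 0.298 FPKM with Ad-GFP, which is the direction the labels give. Reads of the virus and of the cell's own gene were not told apart. The 7 hepatocyte markers summed to 7837 against 9842 FPKM (the Ad-KLF14 value is always given first), with albumin, Alb, at 4172 against 5115 FPKM. Of the 7, 6 were lower with Ad-KLF14, among them Ttr, which was near even (ratio 0.986, interval 0.908 to 1.07). Hnf4a went the other way, at 34.1 against 26.2 FPKM. The macrophage markers summed to 189 against 121 FPKM over 7 genes, of which Cd68 alone was at 160 against 71.1 FPKM. Mpeg1 went the other way, at 17.1 against 40.1 FPKM. Of the 5 macrophage markers that averaged at least 1 FPKM, 3 were higher with Ad-KLF14 and 2 lower, so the sum gives no common direction. Cholangiocyte markers summed to 44.2 against 113 FPKM over 5 genes, nearly all of it Cldn4, and Krt7 was listed at 0 in both libraries. Endothelial (4.44 against 3.47 FPKM, 6 genes), lymphocyte (1.6 against 1.16 FPKM, 5 genes, Cd3e and Nkg7 listed at 0) and stellate cell markers (0.184 against 0.523 FPKM, 6 genes) were low in both. The part of these differences in the values below was not tested. In such bulk samples, fewer cells of a type and less RNA per cell cannot be told apart.

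All 3 genes of the complex among the 10 stood higher with Ad-KLF14, and the kinase stood slightly lower. Of genes outside the 10, the phosphatase gene stood 2.97-fold higher. Dld, the gene of the complex's E3 subunit, stood lower (ratio 0.855, interval 0.798 to 0.916). The enzymes further down were mixed: Ivd was 1.72-fold higher, Mccc2 was 1.53-fold lower, and the intervals of Mccc1, Hibadh and Pcca held 1. For Mut, 1.26-fold higher, the interval held 1 at the smallest number of reads but not at the number that goes with a reference transcript. At the smallest number of reads, 4 of the 10 genes (Bckdha, Bckdhb, Dbt and Ivd) had a ratio above 1 with an interval that excluded 1. Bckdk and Mccc2 had such an interval below 1. The share of all genes with such intervals was not computed, so these counts are not a result about the group.

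The largest ratio among the 10 genes was that of Dbt, which encodes the E2 subunit, the lipoate-bearing acyltransferase that forms the core of the complex. Its transcript stood at 28.2 FPKM with Ad-KLF14 and at 13.2 FPKM with Ad-GFP, from at least 1035 and 492 reads. The ratio was 2.13 (95% interval 1.91 to 2.38), and on the log2(FPKM + 1) scale the difference was 1.04, above that of 94.3% of the genes kept. Bckdha encodes E1 alpha, the subunit of the thiamine-dependent decarboxylase that carries the regulatory phosphorylation. It stood at 43.3 and 30.7 FPKM, a ratio of 1.41 (interval 1.27 to 1.57). Bckdhb, the E1 beta partner, was at 10.8 and 7.27 FPKM, a ratio of 1.49 (interval 1.17 to 1.91). Thus all 3 were higher in the same library, and the 3 intervals lay above 1.

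The proportion of the E1 genes to each other differed little. The level of Bckdha was 4.0 times that of Bckdhb with Ad-KLF14 and 4.22 times with Ad-GFP, and the ratio between these proportions was 0.947 (interval 0.724 to 1.24). E2 shifted against E1 alpha, since Dbt to Bckdha was 0.650 with Ad-KLF14 and 0.430 with Ad-GFP, a 1.51-fold difference (interval 1.299 to 1.76). The E3 subunit, dihydrolipoamide dehydrogenase, is shared with the pyruvate and 2-oxoglutarate complexes, and its gene Dld was at 60.5 and 70.7 FPKM, a ratio of 0.855 (interval 0.798 to 0.916). E3 and E2 thus lay on opposite sides, and the level of Dbt to that of Dld was 2.50-fold higher with Ad-KLF14 (interval 2.19 to 2.84). Such proportions compare 2 genes within a library and do not depend on how the libraries are scaled. In all 8 pairs were compared, chosen with the values of the genes in view.

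The kinase and phosphatase genes lay on opposite sides. Bckdk was at 6.59 FPKM with Ad-KLF14 and 8.39 FPKM with Ad-GFP, a ratio of 0.786 (interval 0.653 to 0.945), from at least 210 and 271 reads. Ppm1k was at 5.85 and 1.97 FPKM, a ratio of 2.97 (interval 2.42 to 3.67), from at least 363 and 124 reads. The Bckdk transcript was thus 4.25 times as abundant as that of Ppm1k in the control library and 1.13 times with Ad-KLF14, a 3.78-fold difference in proportion (interval 2.85 to 5.01). In the same comparison, the proportion of Dbt to Bckdk was 4.28 with Ad-KLF14 and 1.58 with Ad-GFP, a difference of 2.71-fold (interval 2.19 to 3.37). Protein levels and phosphorylation of the complex were not measured.

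**Figure D1:**
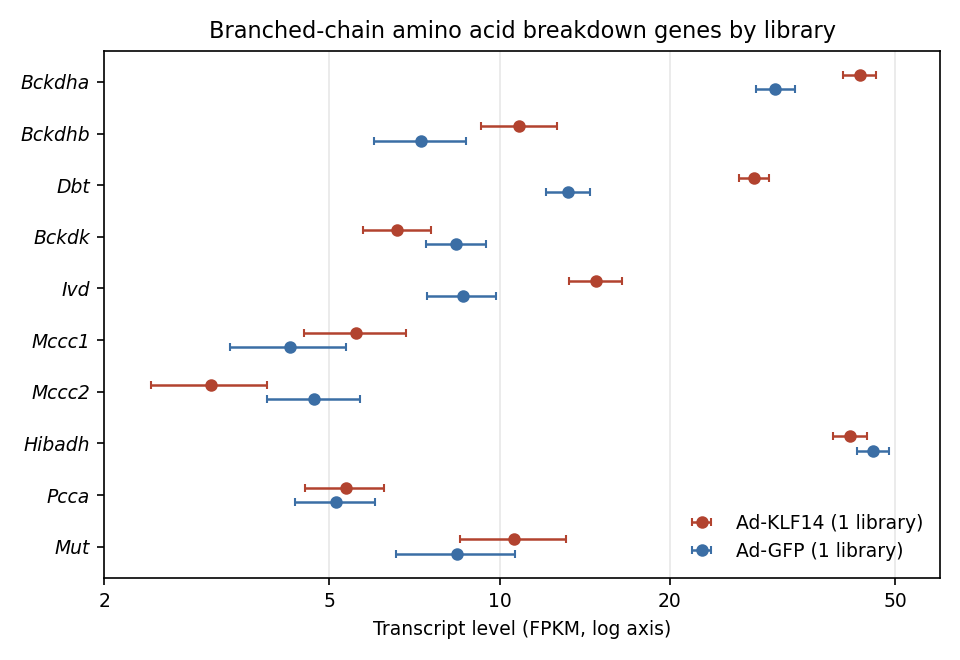
Transcript level of the 10 genes in FPKM on a log axis, with 1 point per library and bars for the exact 95% Poisson interval of the reads, which covers counting error only. The points of Bckdha, Bckdhb, Dbt, Ivd, Mccc1, Pcca and Mut lie to the right with Ad-KLF14, and those of Bckdk, Mccc2 and Hibadh lie to the left. The bars of both libraries overlap for Bckdk, Mccc1, Hibadh, Pcca and Mut.

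The sequences before the start sites of the complex, kinase and phosphatase genes are shown because these transcripts differed in opposite directions. Those of Mccc1 and Mccc2 are shown because these 2 genes encode subunits of 1 enzyme and shifted in proportion to each other. KLF proteins are known to bind GC boxes and CACCC elements, so the core of a GC box, GGGCGG, and the element CACCC were searched on both strands in the 250 bases before each start. On the opposite strand a GC box core reads CCGCCC and a CACCC element reads as GGGTG. Matches are in capitals, and neighbouring matches of both motifs may share bases. The sequences are from RefSeq on build GRCm38.p6, which is not the mm8 build named in the submitters' processing notes, and are written 5′ to 3′ in the direction of the gene.
Bckdha (chr7:25658762-25659011, minus strand): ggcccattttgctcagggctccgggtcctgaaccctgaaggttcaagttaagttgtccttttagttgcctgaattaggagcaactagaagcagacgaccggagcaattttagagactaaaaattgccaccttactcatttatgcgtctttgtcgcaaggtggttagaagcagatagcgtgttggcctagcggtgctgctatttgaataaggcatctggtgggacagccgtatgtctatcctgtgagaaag
Bckdhb (chr9:83924887-83925136, plus strand): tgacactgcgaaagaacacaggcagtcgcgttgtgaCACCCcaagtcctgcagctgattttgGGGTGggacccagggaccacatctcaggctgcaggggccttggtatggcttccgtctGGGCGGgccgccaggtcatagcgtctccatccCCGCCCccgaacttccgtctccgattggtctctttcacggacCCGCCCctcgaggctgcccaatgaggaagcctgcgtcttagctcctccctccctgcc
Bckdk (chr7:127903823-127904072, plus strand): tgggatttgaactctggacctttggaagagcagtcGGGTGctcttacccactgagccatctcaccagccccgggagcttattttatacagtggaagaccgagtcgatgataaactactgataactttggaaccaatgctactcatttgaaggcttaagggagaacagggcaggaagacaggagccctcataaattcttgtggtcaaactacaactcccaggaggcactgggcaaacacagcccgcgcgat
Ppm1k (chr6:57535488-57535737, minus strand): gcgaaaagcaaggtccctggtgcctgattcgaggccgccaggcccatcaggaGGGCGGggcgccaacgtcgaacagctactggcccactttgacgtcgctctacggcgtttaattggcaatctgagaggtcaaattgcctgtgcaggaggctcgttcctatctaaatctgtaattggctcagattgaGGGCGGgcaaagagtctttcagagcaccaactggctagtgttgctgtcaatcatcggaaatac
Mccc1 (chr3:36000679-36000928, minus strand): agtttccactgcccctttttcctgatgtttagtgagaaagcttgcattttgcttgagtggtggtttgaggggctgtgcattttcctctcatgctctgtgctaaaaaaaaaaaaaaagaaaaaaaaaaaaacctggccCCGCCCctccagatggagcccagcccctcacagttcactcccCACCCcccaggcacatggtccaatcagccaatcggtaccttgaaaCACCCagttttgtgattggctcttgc
Mccc2 (chr13:100015640-100015889, minus strand): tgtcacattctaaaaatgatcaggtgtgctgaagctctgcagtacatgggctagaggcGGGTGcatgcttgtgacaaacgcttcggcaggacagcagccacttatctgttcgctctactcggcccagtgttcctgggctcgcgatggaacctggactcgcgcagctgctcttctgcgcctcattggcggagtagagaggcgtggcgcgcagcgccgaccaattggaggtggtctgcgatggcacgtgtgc

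RefSeq entries were matched for 8 of the 10 genes, and Dbt and Mut were not matched. For Bckdhb and Pcca, which have several start sites in the table, the first is used, and the other site differs in its matches. The second site of Bckdhb has no match of either motif at 36.4% GC, and that of Pcca has 2 matches of GGGCGG and none of CACCC at 64.8% GC. The motif GGGCGG was found, with the first sites, in 3 of the 8 sequences (Bckdhb, Mccc1 and Hibadh) and also before Ppm1k, and it occurs in 32.7% of all 32851 sequences of this length in the table. CACCC was found in 7 of the 8, all but Bckdha, and occurs in 52.0% of all. Bckdhb (with 3 matches of the GC box core and 2 of CACCC) and Bckdha (with no match) both had higher levels with Ad-KLF14, and Mccc2 and Bckdk (each with 1 match, of CACCC) had lower ones. The GC content of the 8 sequences ran from 47.6% to 63.2% with a median of 52.4%, and the median of all was also 52.4%. A match describes the letters in this window and does not show that KLF14 binds there.

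In the leucine branch, the gene of the first enzyme stood higher, and the 2 subunit genes of the enzyme after it shifted in proportion. Ivd encodes isovaleryl-CoA dehydrogenase, the flavoenzyme that follows the complex. It was at 14.8 FPKM with Ad-KLF14 and 8.60 FPKM with Ad-GFP, a ratio of 1.72 (interval 1.44 to 2.06), and its log2 difference of 0.72 was above that of 87.4% of the genes kept. Mccc1 and Mccc2 encode the biotin-bearing alpha subunit and the beta subunit of methylcrotonyl-CoA carboxylase. Mccc1 was at 5.57 and 4.25 FPKM, a ratio of 1.31 with an interval of 0.953 to 1.81, so its reads could not resolve a difference. Mccc2 was at 3.08 and 4.70 FPKM, a ratio of 0.655 (interval 0.481 to 0.887). Between the subunits the proportion shifted: Mccc1 to Mccc2 was 1.81 with Ad-KLF14 and 0.905 with Ad-GFP, and these proportions differed by 2.0-fold (interval 1.28 to 3.13). With Ad-GFP the intervals of the 2 levels overlapped, so their order was not resolved there. Mccc2 was under 1.5-fold on log2(FPKM + 1), at −0.48, since the added 1 FPKM draws low genes together. In the reference annotation the exons of Mccc1 overlap antisense transcripts, and no label says that strand was used in counting. Exons of Bckdha overlap those of B3gnt8 on the other strand (0.0961 and 0.0474 FPKM), and those of Hibadh a snoRNA.

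The gene of the next leucine enzyme, Auh, the hydratase after the carboxylase, was at 9.60 and 10.5 FPKM (ratio 0.919, interval 0.728 to 1.16).

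In the valine branch, Hibadh, which encodes 3-hydroxyisobutyrate dehydrogenase, was the most abundant of the 10 transcripts with Ad-GFP. It stood at 41.6 FPKM with Ad-KLF14 and 45.7 FPKM with Ad-GFP, from at least 805 and 897 reads. The ratio of 0.910 had an interval of 0.827 to 1.002, so its reads could not resolve a difference, and a level more than 1.21-fold lower lies outside the interval. Of the genes before it, Acad8 (isobutyryl-CoA dehydrogenase) was higher, with a ratio of 1.24 (interval 1.08 to 1.42), and Hibch (the hydrolase) had a ratio of 1.17 with an interval that held 1 (0.947 to 1.44). The gene after it, Aldh6a1, which encodes methylmalonate semialdehyde dehydrogenase, was at 9.06 and 3.83 FPKM, a ratio of 2.36 (interval 1.94 to 2.89). Of these 4 valine genes, Aldh6a1 was the only one past 2-fold.

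On the propionyl-CoA route Pcca was close to even, Mut had a ratio somewhat above 1, and Mcee, between them, stood lower. Pcca encodes the biotin-bearing alpha subunit of propionyl-CoA carboxylase and was at 5.34 FPKM with Ad-KLF14 and 5.13 FPKM with Ad-GFP (ratio 1.04, interval 0.827 to 1.31). Its partner Pccb was at 6.42 and 6.71 FPKM (ratio 0.956, interval 0.768 to 1.19). The proportion of Pcca to Pccb was 0.832 and 0.764, a difference of 1.09-fold with an interval of 0.790 to 1.502. Mut encodes methylmalonyl-CoA mutase, the vitamin B12-dependent enzyme that makes succinyl-CoA, and was at 10.6 and 8.42 FPKM, a ratio of 1.26. Its interval was 0.910 to 1.75 from at least 87 and 70 reads. With 435 and 350 reads, which give a gene length near that of a reference transcript, the interval was 1.09 to 1.46. In the reference annotation the exons of Pcca overlap those of Ggact on the other strand, for which no value was found. The exons of Mut overlap those of Cenpq on the other strand. Cenpq was at 7.09 and 3.74 FPKM, and how many reads of one gene were counted for the other was not tested. Mcee, the epimerase between the carboxylase and the mutase, was at 5.80 and 16.1 FPKM (2.78-fold lower, interval 1.97 to 4.0). The level of Mut to that of Mcee was 1.83 with Ad-KLF14 and 0.522 with Ad-GFP, a 3.51-fold difference (interval 2.15 to 5.73).

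**Figure D2:**
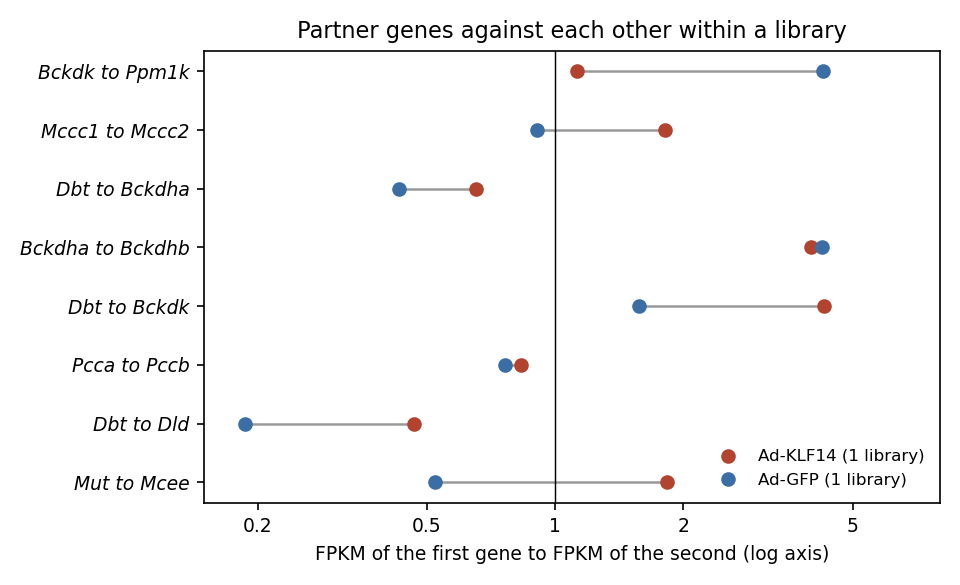
FPKM of the first gene to FPKM of the second within each library, for the 8 pairs compared, on a log axis, with 1 point per library and a line joining them. Bckdk to Ppm1k moves from 4.25 with Ad-GFP to 1.13 with Ad-KLF14, and Mccc1 to Mccc2 crosses 1, while Bckdha to Bckdhb and Pcca to Pccb lie nearly on top of each other.

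By level, the 10 transcripts ran from 4.25 FPKM (Mccc1) to 45.7 FPKM (Hibadh) with Ad-GFP and from 3.08 FPKM (Mccc2) to 43.3 FPKM (Bckdha) with Ad-KLF14. FPKM values are per length, so they can be compared between genes within the limits of the gene models. In the Ad-GFP library the order was Hibadh, Bckdha, Dbt and Ivd, each apart from the next by its 95% Poisson interval up to Ivd. From there Mut, Bckdk, Bckdhb, Pcca, Mccc2 and Mccc1 followed, and each interval overlapped that of its neighbour. In the Ad-KLF14 library Bckdha and Hibadh came first with overlapping intervals, then Dbt and Ivd, each apart from the next. Bckdhb and Mut overlapped each other and stood apart from Bckdk, which shared its interval with Mccc1 and that with Pcca, and Mccc2 stood apart as the lowest. The median of the 10 was 10.7 FPKM with Ad-KLF14 and 8.40 FPKM with Ad-GFP.

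Averaged over both libraries, all 10 genes reached 1 FPKM, as did 12419 genes in all, which form the background. On log2(FPKM + 1), Dbt and Ivd were higher by 1.5-fold or more with Ad-KLF14, that is 2 of the 10, beside 16.7% of all genes kept, and 0 were lower by as much, beside 20.9%. From 2-fold on, 1 of the 10 (Dbt) was higher against 6.37% of all genes, and 0 were lower against 8.99%. The 1.5-fold share of higher genes is near the background. With only 10 genes, neither the lack of lower ones nor the number far apart is a result about this group. In all 7 were above 0 and 3 below, and the median difference was 0.31 beside −0.03 for all genes kept, where 48.3% were above 0. The 10 genes lay between −0.48 and 1.04.

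**Figure D3:**
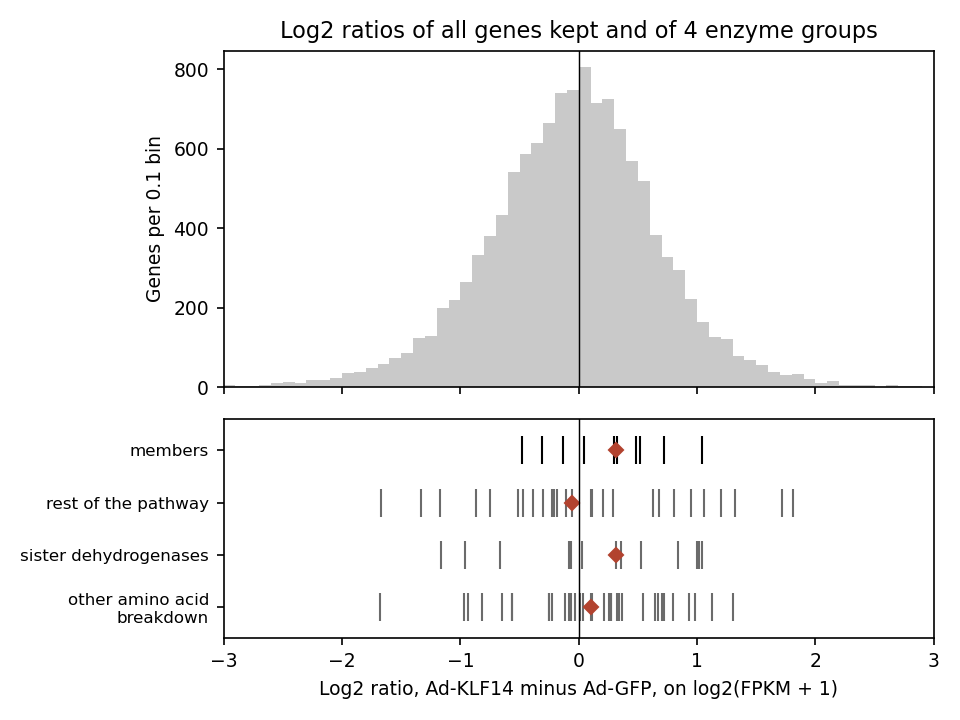
Upper part: number of genes in each 0.1 bin of the difference in log2(FPKM + 1) between Ad-KLF14 and Ad-GFP, positive where Ad-KLF14 is higher, for the 12419 genes kept, leaving out 16 genes beyond 3 in either direction. Lower part: 1 tick per gene and a diamond at the median for the 10 genes and 3 related groups on the same axis. The ticks of the 10 genes lie within the bulk of all genes, with a median of 0.31.

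Another 30 genes of uptake, transamination, breakdown and cofactor supply ranged from −1.67 to 1.81 on the same scale. A total of 27 passed the filter, 13 above 0 and 14 below, with a median of −0.06 and a mean of 0.10. From 1.5-fold on, 9 of the 27 (33.3%) were higher and 5 (18.5%) lower, beside 16.7% and 20.9% of all genes kept. The 2-fold counts were 5 and 3, beside 6.37% and 8.99% of all genes kept. These counts were not tested. With a filter of 5 FPKM their median was 0.11, without a filter 0.03 and with a trend along expression removed 0.01, so the sign of the median depended on these choices.

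Transporters gave the largest positive differences. Slc25a44, the mitochondrial carrier of branched-chain amino acids, was at 66.4 and 19.6 FPKM, a ratio of 3.40 (interval 3.14 to 3.68) from at least 2652 and 792 reads. Slc43a1 and Slc43a2, the plasma membrane carriers LAT3 and LAT4, had ratios of 3.85 (28.1 against 7.31 FPKM, interval 3.30 to 4.503) and 3.55 (5.05 against 1.42 FPKM, interval 1.72 to 8.04). The interval of Slc43a2 is at the smallest number of reads. With 385 and 110 reads, which give it a length near that of a reference transcript, the interval was 2.87 to 4.43. The heavy chain of the exchanger LAT1, Slc3a2, went the other way at 94.0 against 159 FPKM (ratio 0.591, interval 0.565 to 0.619), and its light chain Slc7a5 was near even at 20.04 and 18.6 FPKM (ratio 1.08, interval 0.973 to 1.19). The aminotransferase genes were barely detected. Bcat2, the mitochondrial form, was at 0.345 and 0.284 FPKM from at least 6 and 5 reads (ratio 1.22, interval 0.309 to 5.04). The cytosolic Bcat1 was at 0.0685 and 0.0225 FPKM from at least 3 reads and 1 read (ratio 3.04, interval 0.244 to 160), so neither allows a statement on a difference.

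The isoleucine branch held both directions too. Acadsb, its acyl-CoA dehydrogenase, was at 13.5 and 8.37 FPKM (ratio 1.61, interval 1.40 to 1.86), and Acat1, the thiolase of the last step, at 42.4 and 21.4 FPKM (ratio 1.98, interval 1.82 to 2.15). Between them, Echs1 and Hsd17b10 had ratios of 0.715 (interval 0.629 to 0.813) and 0.695 (interval 0.619 to 0.780). These 2 enzymes and Acat1 also serve fatty acid or ketone metabolism. In 3 routes the acyl-CoA dehydrogenase gene, Ivd, Acadsb or Acad8, had a ratio above 1.

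The list for vitamin B12, biotin and lipoate has 10 genes, including Mtr, which uses B12 and does not supply it. Of these, 7 lay below 0, 3 were at least 1.5-fold lower beside 20.9% of all genes kept, and 2, Lias and Mtr, were at least 1.5-fold higher beside 16.7%. With so few genes these counts are not a result about the list. Hlcs, which attaches biotin to the carboxylases, was at 2.36 and 6.57 FPKM (2.79-fold lower, interval 2.27 to 3.44), and Btd, which recycles biotin, at 10.4 and 19.8 FPKM (1.90-fold lower, interval 1.62 to 2.24). Of the genes for lipoate, which the E2 subunit carries, Lipt2 was at 0.584 and 4.03 FPKM (6.90-fold lower, interval 3.27 to 16.8, from at least 8 and 56 reads), while the synthase Lias was at 33.6 and 20.6 FPKM (ratio 1.63, interval 1.43 to 1.85). Mmab, which makes the form of vitamin B12 that Mut needs, was at 1.89 and 2.78 FPKM (ratio 0.680, interval 0.486 to 0.945). The other B12-dependent enzyme gene, Mtr (methionine synthase), had a ratio of 1.92 (interval 1.61 to 2.29).

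**Figure D4:**
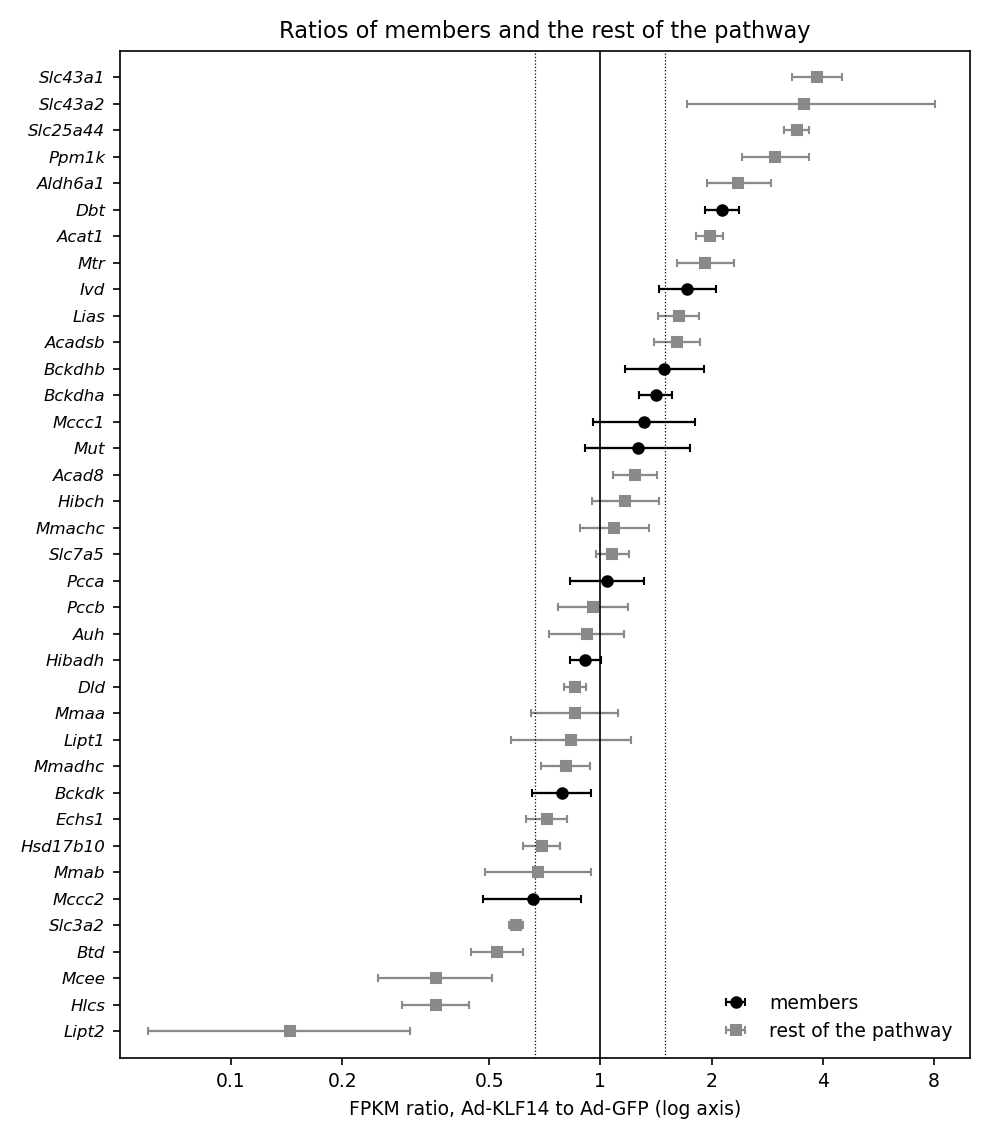
FPKM ratio of Ad-KLF14 to Ad-GFP on a log axis for the 10 genes (black circles) and the 27 others of the pathway that averaged at least 1 FPKM (grey squares), in order of ratio. Bars are exact 95% counting intervals, the solid line marks a ratio of 1, and the dotted lines 1.5-fold in either direction. The black points lie between 0.655 (Mccc2) and 2.13 (Dbt), while the others reach from 0.145 (Lipt2) to 3.85 (Slc43a1).

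Related enzymes were compared to see where the 10 genes stand. The pyruvate and 2-oxoglutarate complexes are built like the branched-chain complex and share Dld with it. Of their 14 genes 13 passed the filter, with a median of 0.32, and 8 lay above 0. From 1.5-fold on, 4 (30.8%) were higher and 3 (23.1%) lower, beside 16.7% and 20.9% of all genes kept. Pdha1, the E1 alpha counterpart of Bckdha, was at 27.4 and 44.1 FPKM (ratio 0.622, interval 0.571 to 0.679), whereas Pdhb and Pdhx had ratios of 1.80 and 2.11. The E2 gene of that complex, Dlat, was near even (ratio 0.941, interval 0.847 to 1.05). Its kinases, relatives of Bckdk, went both ways, with ratios of 0.366 for Pdk1, 0.946 for Pdk2, 1.58 for Pdk3 and 1.27 for Pdk4, and the phosphatase genes Pdp1 and Pdp2 had ratios of 0.362 and 2.45. The other biotin carboxylases were higher or even, with Pc at 30.3 and 16.1 FPKM (ratio 1.88, interval 1.72 to 2.06), Acaca at a ratio of 1.09 and Acacb at 1.15. Breakdown of other amino acids had 37 genes kept of 40 and a median of 0.11. Of these 37, 9 (24.3%) were higher and 5 (13.5%) lower from 1.5-fold on, beside the same 16.7% and 20.9%. None of these counts was tested. The largest differences of this list on log2(FPKM + 1) were those of Aldh7a1 in lysine breakdown (ratio 0.292), Gcat in threonine breakdown (2.61) and Amt in glycine cleavage (2.64). By the ratio itself Aass, also of lysine breakdown and low at 0.606 against 2.08 FPKM, was as far apart as Aldh7a1 (3.43-fold lower, interval 2.18 to 5.59).

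Of 5 genes known to act on the pathway, Ppargc1a, a coactivator of mitochondrial genes, was at 2.58 and 0.558 FPKM (ratio 4.63, interval 3.28 to 6.66), and Pparg at 11.5 and 2.76 FPKM (ratio 4.16, interval 3.11 to 5.65). Klf15, a KLF factor tied to amino acid breakdown, was at 4.07 and 2.39 FPKM (ratio 1.70, interval 1.07 to 2.75). Mlxipl, which encodes ChREBP and has been linked to the kinase and phosphatase of the complex, had a ratio of 1.28 (interval 1.19 to 1.37), and Ppara a ratio of 0.629 (interval 0.476 to 0.826). Whether any of them bears on the 10 genes was not tested.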

How the data were processed

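RNA of mouse primary hepatocytes was purified with Trizol and sequenced from Illumina TruSeq libraries, per the labels' protocols. Bowtie 0.12.2 and the mm8 build are named in the submitters' processing notes. The series' design text also names BWA and TopHat with Cufflinks, but beside retinal triplicates. Gene models, counting rule, strand and pooling of cultures are not given in the sources used here. The authors deposited 1 table of FPKM values per group.

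Reads were recovered from the FPKM steps with Python 3.11.15, numpy 2.4.6, pandas 2.3.3 and scipy 1.17.1. The commonest ratio of both libraries, shared by 679 genes with equal reads, gave the totals up to a whole factor. A factor of 9 was taken because 87.6% of the 459 whole gene lengths among them were divisible by it. Of 19667 genes above 0 in either library, 99.9% gave whole reads (relative tolerance 1e-11). Each gene was given the smallest pair of reads with a whole gene length, so reads are lower limits. On simulated data of 19242 genes both totals were recovered, 84.0% of read pairs were exact and 0% too high. The 0% follows from taking the smallest pair and is no check of the method. The simulated totals had no whole factor in common, so their recovery is no check of the factor of 9.

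Ratios of named genes are FPKM ratios, Ad-KLF14 to Ad-GFP. Intervals are exact Clopper-Pearson intervals at 95% for ratios, exact Poisson intervals for levels, and conditional exact odds-ratio intervals for proportions between genes. Log2 differences use a pseudocount of 1 FPKM, and genes averaging 1 FPKM or more were kept. With 1 library a group there is no test. All 138 symbols of the lists were matched, 4 through RefSeq synonyms. Named were the 10 genes, 13 partner genes, others of the pathway at least 1.5-fold apart, the 3 largest differences of each comparison list, the regulators, Pdha1, Pdk1 to Pdk4, Pc, and Klf14 and Alb as checks. Echs1, Hsd17b10, Slc7a5, Dlat, Pdhb, Pdp1 and Aass, and the marker and overlapping genes given with values, were added once their values were known. The genes and lists were chosen with earlier results of these data known. A gene of the pathway list is not reported here and was left out of its counts. Alternatives were other pseudocounts, scalings and filters, and removal of a trend with expression.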

Additional observations from a re-analysis of the deposited data

How the results depend on the processing

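No paired analysis was possible because each group has 1 library, and for the same reason no library could be left out. Each of the 10 genes kept the sign of its log2 difference under all 7 alternatives run on single genes (pseudocounts, scalings and trend removal). A pseudocount cannot change a sign. The scalings all raised the Ad-KLF14 values relative to Ad-GFP, so they could not turn a positive difference negative. With a pseudocount of 5 FPKM the difference of Dbt was 0.87 and 1 of the 10 genes (Dbt) was at least 1.5-fold higher. With 0.1 FPKM 1 (Mccc2) was at least 1.5-fold lower. With 5 FPKM the background counts were 1249 genes higher and 1551 lower from 1.5-fold on, and 295 and 467 from 2-fold on, beside 2079, 2598, 791 and 1117. This follows from the larger pseudocount, which draws all genes together. Over all 9 alternatives the median of the 10 genes ran from 0.21 to 0.42, and scaling moved the median of all genes to between −0.004 and 0.02. Of 700 values of listed genes outside the 10, 668 moved by less than their counting interval and 32 moved further. A sign change was seen in 15 of the 700 values, from 7 genes (Ttr, Csf1r, Kmo, Pccb, Pdk2, Dlst and Tdo2) whose log2 differences lay within 0.07 of 0. Depth limits genes on few reads, such as Bcat1, Bcat2 and Lipt2, and spread between cultures is unknown for every value.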
